A study of Mus musculus with 2 samples.

Results

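The Notch genes described here are 10 genes of receptors, ligands, targets and a modifier of this pathway, Notch1, Notch2, Notch3, Jag1, Jag2, Dll1, Hes1, Hey1, Nrarp and Lfng, among 18193 genes with a probe set of their own. Their members were the probe sets that the platform annotation assigns to exactly 1 of these genes, which gave 18 probe sets of 45101. Transcripts were measured in CD34-positive epithelial cells sorted from skin tumours of a K14CreER:Rosa-VEGF-164 mouse and of a wild-type mouse, with 1 Affymetrix Mouse Genome 430 2.0 array each. In the first animal a Cre recombinase driven by the keratin 14 promoter, active in basal epidermis and hair follicles and switched on by tamoxifen-like drugs, acts on a VEGF-164 construct at the Rosa locus. Both animals had received the carcinogen DMBA at postnatal days 23, 25 and 27 and again at 7 weeks of age, with repeated TPA, a tumour-promoting phorbol ester. The number of tumours or animals behind each RNA sample is not given in the labels. Living cells were sorted after staining for CD34, α6-integrin and Epcam and for CD45, CD31 and CD140a, markers of blood, endothelial and mesenchymal cells that shared a dye.

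Notch receptors are membrane proteins that are cut when a Jagged or Delta ligand on a neighbouring cell binds them. The released intracellular part joins the DNA-binding protein RBPJ and Mastermind coactivators and switches on genes such as Hes1, Hey1 and Nrarp. In mouse epidermis Notch signalling is known to promote the exit of keratinocytes from the basal layer, and loss of Notch1 in mouse skin is known to favour chemically induced tumours.

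The values below are signals in arbitrary units, the anti-log of the deposited log2 values. A probe set counted as above background when its signal exceeded 11.3 on the VEGF-labelled array or 19.8 on the wild-type array, the 90th percentile of that array's signals from 80 olfactory and vomeronasal receptor probe sets, whose genes skin is not known to use. Signals below this level were raised to it. A log2 ratio is the VEGF-labelled array over the wild-type array, and a difference of at least 2-fold is called. With 1 array per genotype there is no replicate error and no test. The only error in these files is how far probe sets of one gene differ in their ratio, an SD on the log2 scale of 0.33 at high signal, 0.46 at intermediate signal and 0.52 at low signal (tertiles of probe sets). It leaves out all spread between animals, tumours and sorts.

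The 6 epithelial and sort markers listed for these cells, Krt14, Krt5, Epcam, Cdh1, Itga6 and Cd34, were above background on both arrays. Vegfa, the gene the construct carries, had signals of 397 on the VEGF-labelled array and 804 on the wild-type array by its brighter probe set, and 127 against 302 by the other. Whether these probe sets read the construct is not given in the sources used here, so directions follow the label. Markers of other cells were measured too. Of the endothelial list 4 of 10 genes were above background on both arrays, with summed signals of 244 on the VEGF-labelled array and 211 on the wild-type array. The fibroblast list had 6 of 7 above background on both arrays and summed signals of 2667 against 1177, of which Col1a2 gave 942 against 324 and Col3a1 gave 1235 against 490. Its members Dcn and Thy1 had log2 ratios of -0.34 and -1.21. The mural list had 4 of 8 and summed 1051 against 2027, of which Acta2 alone gave 755 against 1621. The immune list had 4 of 8 and summed 203 against 284, and the melanocyte list 3 of 5 and 195 against 364. Among the genes of the antigens that shared a dye, the signal of Ptprc (CD45) was 17.3 on the VEGF-labelled array against 14.4 on the wild-type array. That of Pecam1 (CD31) was 22.0 against 3.07 and that of Pdgfra (CD140a) 34.7 against 9.86. These wild-type signals were all below background. That leaves log2 ratios of at least 0.15 for Pecam1 and 0.80 for Pdgfra, and none for Ptprc. The part of these other cells in the Notch values was not tested, and in RNA from a cell population fewer cells of a type and less RNA per cell cannot be told apart.

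Of the 10 Notch genes, 1 was at least 2-fold higher on the VEGF-labelled array and 0 reached 2-fold lower, taking each gene by its brightest probe set. Over all 12240 genes with a ratio, the share at least 2-fold higher was 3.86% and the share at least 2-fold lower 8.65%. Higher genes made up 30.8% of all genes called in this way, but 43.1% with a common floor (the wild-type level on both arrays), 50.9% after quantile and 52.6% after lowess normalization, 51.0% with an offset of 50 and 86.2% with that offset after matching the array medians. They made up 49.9% of the genes called once dim genes (mean below 4 times background) were left out. By gene, the median log2 ratio of the 10 was -0.10, with 4 above 0 and 6 below, against -0.04 over all genes. The 17 Notch probe sets with a ratio had a median of 0.10, with 10 above 0 and 7 below, against a median of -0.07 over all probe sets. Of these probe sets 1 was called higher and 0 lower, where 3.53% and 10.3% of all probe sets were. The 1 called gene was Notch1, and Notch2 lay just short of 2-fold. Log2 ratios of the ligand probe sets lay between -0.49 and 0.55, and the targets went both ways.

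**Figure D1:**
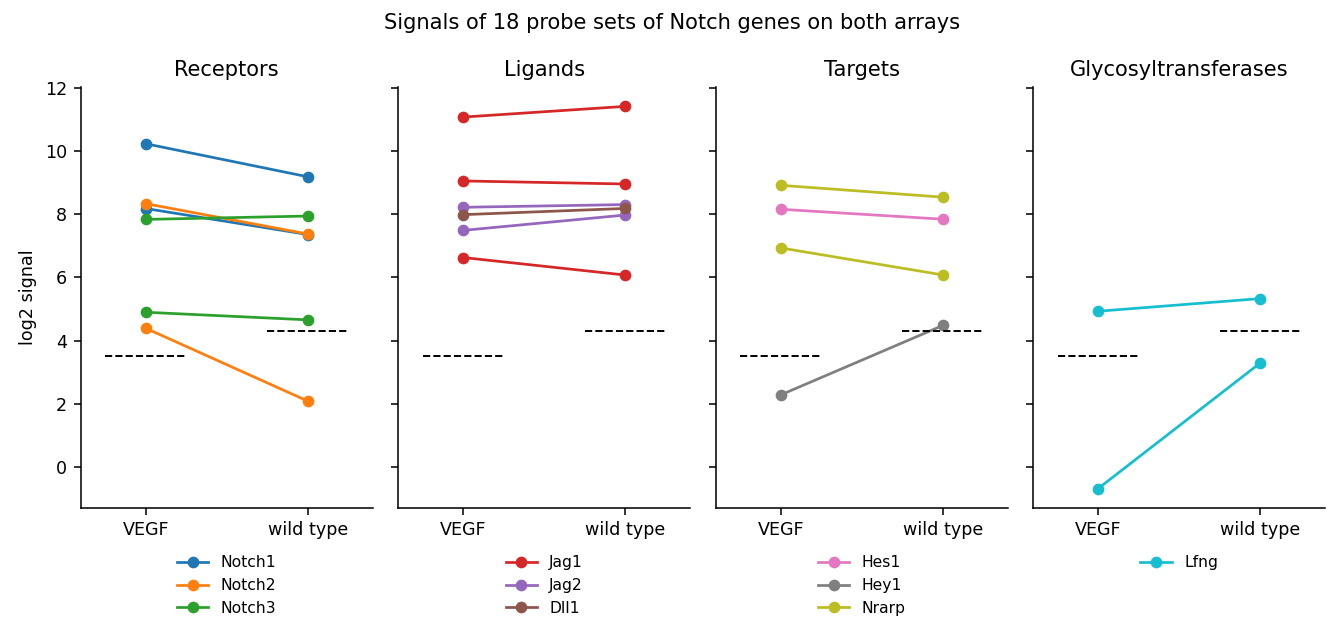
Log2 signal of each of the 18 probe sets on the VEGF-labelled array (left in each panel) and the wild-type array (right), joined by a line and coloured by gene, with a panel for each role. Dashed lines mark the background level of each array. The lines of both Notch1 probe sets and both Notch2 probe sets are higher on the VEGF-labelled array, while Hey1 and 1 Lfng probe set lie below the background of that array.

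Among the receptors, Notch1 and Notch2 had higher signals on the VEGF-labelled array and Notch3 had nearly equal ones. Notch1, a receptor of the basal and spinous layers, had a signal of 1200 on the VEGF-labelled array and 582 on the wild-type array by its brighter probe set, 2.06-fold higher, a log2 ratio of 1.05. The dimmer Notch1 probe set gave 290.0 against 164, a log2 ratio of 0.82. Both probe sets therefore lay on the same side by more than the probe set SD of 0.33. Ratios at least as high as that of the brighter Notch1 probe set were found in 3.12% of all probe sets with a ratio, and in 2.43% of those in the same tertile of signal. The brighter Notch1 value rested close to the 2-fold line: its log2 ratio was 0.98 after quantile normalization, 0.99 with an offset of 50 added to unmatched signals, and 0.93 as the median over both probe sets.

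Notch2, a related receptor also made in epidermis, had a signal of 322 on the VEGF-labelled array and 166 on the wild-type array, 1.95-fold higher, a log2 ratio of 0.96. A ratio as high was found in 3.96% of all probe sets. Its other probe set was dim, with 21.0 against 4.25, and passed background on the VEGF-labelled array alone, which leaves a bound of at least 1.06-fold higher. Notch3, a receptor best known in vascular mural cells and also made in epidermis, had 228 on the VEGF-labelled array and 246 on the wild-type array by the brighter probe set, and 29.8 against 25.2 by the dimmer one. Its log2 ratios of -0.11 and 0.24 lay on both sides of 0 and within the probe set SD of their tertiles, and the brighter probe set gave 0.23 with the offset after matching the array medians. That probe set is of a type that can bind several transcripts. Notch4, the remaining receptor and mainly an endothelial one, was at or below background on both arrays, with signals of 10.9 and 9.03.

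None of the 6 ligand probe sets reached 2-fold, where 3.53% of all probe sets were called higher and 10.3% lower. Jag1, a Jagged ligand of epidermis and hair follicle, was read by 3 probe sets that did not go together. The brightest had a signal of 2154 on the VEGF-labelled array and 2723 on the wild-type array, a log2 ratio of -0.34. The next had 531 against 496, a log2 ratio of 0.10, and the dimmest 99.0 against 67.4, a log2 ratio of 0.55. The gap between the highest and lowest Jag1 ratio was 0.89, so no direction can be given for Jag1.

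Jag2, the other Jagged ligand, had 298 on the VEGF-labelled array and 316 on the wild-type array by the brighter probe set. It had 179 against 252 by the other, so the log2 ratios were -0.09 and -0.49. The first was within the probe set SD and the second was -1.48 times it. Dll1, a Delta ligand made by basal keratinocytes, had 254 against 290.5 by its only probe set, a log2 ratio of -0.20. The main ratios of Jag1, Jag2 and Dll1 were below 0 as deposited but above 0, between 0.05 and 0.26, with the offset after matching the array medians. Over the 12240 genes with a ratio, the median log2 ratio was 0.23 in that setting, -0.03 with the same offset and no matching, and -0.04 as reported.

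The targets went both ways, and the lower one was dim. Hes1, a transcriptional repressor and the classical Notch target, had a signal of 285 on the VEGF-labelled array and 229 on the wild-type array, a log2 ratio of 0.31, just within the probe set SD. Nrarp encodes a small ankyrin-repeat protein that binds the Notch intracellular part and restrains it. Its brighter probe set gave 483 on the VEGF-labelled array and 372 on the wild-type array, a log2 ratio of 0.38, and the dimmer one 122 against 67.6, a log2 ratio of 0.85. Both Nrarp probe sets were thus higher on the VEGF-labelled array, by 1.14 and 1.85 times the SD of their tertile, and neither reached 2-fold.

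Hey1, a repressor related to Hes1, had a signal of 4.87 on the VEGF-labelled array, below its background, and 22.3 on the wild-type array, just above it. The bound is at least 1.97-fold lower, and with a common floor on both arrays it is a log2 ratio of only -0.17. Lfng encodes Lunatic fringe, a glycosyltransferase that extends sugars on Notch and alters which ligands it answers. Its brighter probe set had 30.5 on the VEGF-labelled array and 40.3 on the wild-type array, a log2 ratio of -0.40 that is within the SD of 0.52 for dim probe sets. The other Lfng probe set was below background on both arrays, with signals of 0.62 and 9.81. Hey1 and Lfng were thus read close to the background on these arrays, and Hes1 and Nrarp well above it.

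**Figure D2:**
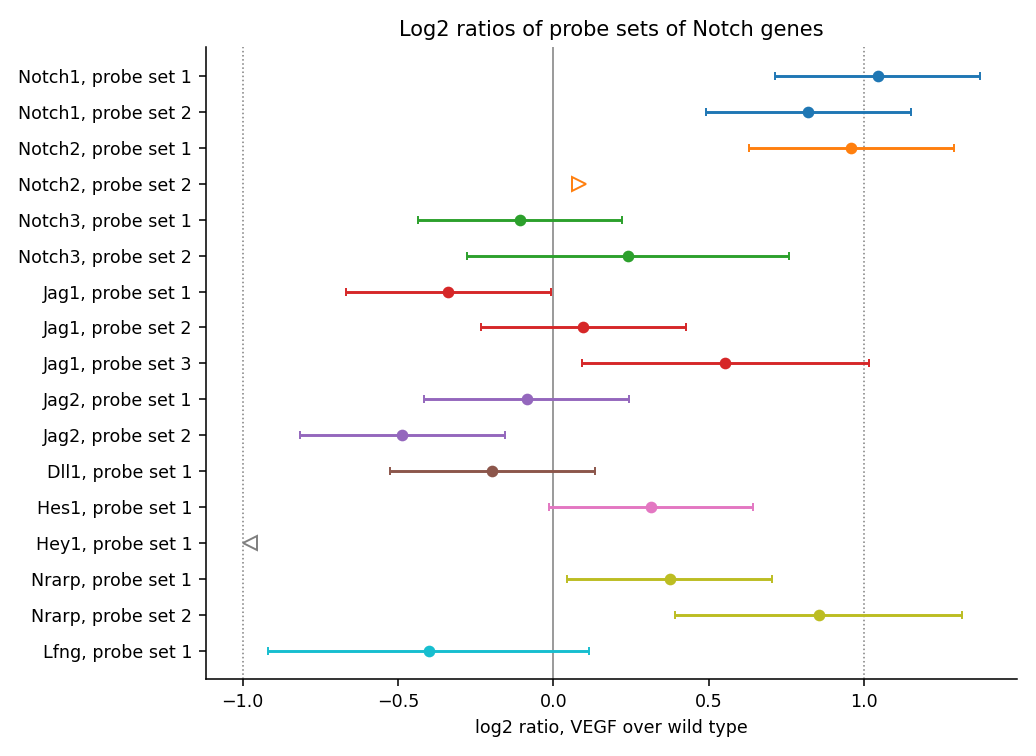
Log2 ratio (x axis, the VEGF-labelled array over the wild-type array) of the 17 probe sets with a ratio, numbered from the brightest within each gene. Bars are 1 SD of the disagreement between probe sets of a gene at that signal and not replicate error, open triangles are bounds, and dotted lines mark 2-fold. The brighter Notch1 probe set lies past the 2-fold line, and the 3 Jag1 probe sets spread from -0.34 to 0.55.

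For 6 Notch genes at least 2 probe sets had a ratio, and they went in the same direction for 4 of the 6 (Notch1, Notch2, Jag2 and Nrarp) and in both directions for Notch3 and Jag1. Of the 15 probe sets above background on both arrays, 8 had a ratio larger in size than the probe set SD of their tertile, as did 44.3% of all probe sets above background on both arrays. Within receptors the median log2 ratio of the 6 probe sets was 0.53, within the 4 target probe sets 0.35 and within the 6 ligand probe sets -0.14. These medians describe few probe sets, several of which read the same gene.

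**Figure D3:**
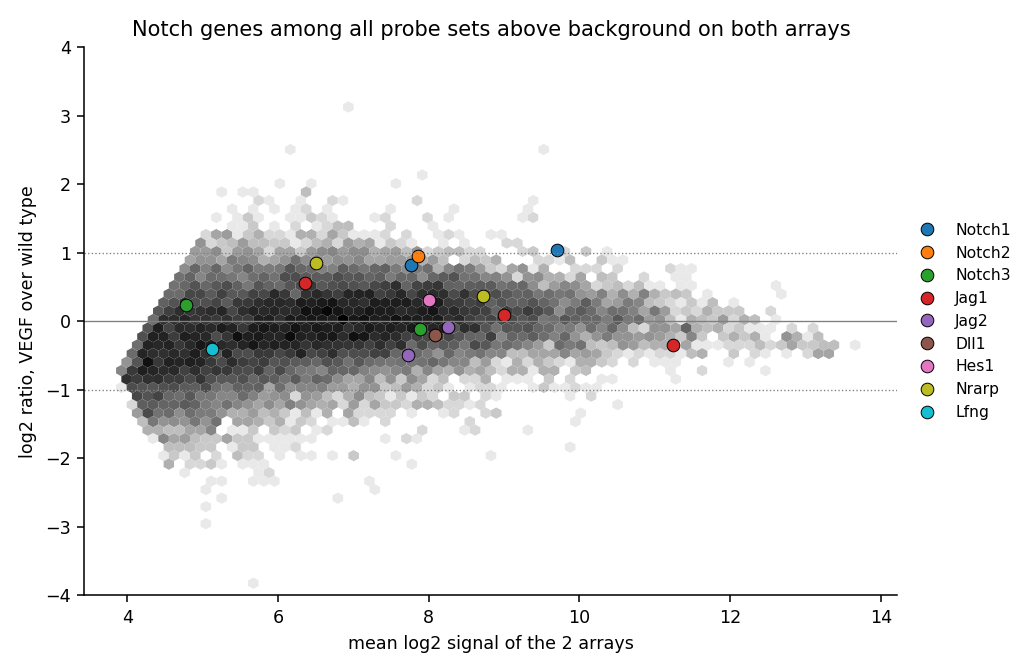
Log2 ratio (y axis, the VEGF-labelled array over the wild-type array) against mean log2 signal (x axis) for all probe sets above background on both arrays, in grey with darker cells for more probe sets on a log scale, and for the 15 Notch probe sets in colour. Dotted lines mark 2-fold. The brighter Notch1 probe set has a log2 ratio of 1.05, and the others lie between -0.49 and 0.96.

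The promoters of Nrarp and Lfng, both known as Notch targets in mouse, are shown for the letters to which RBPJ and Hes factors can bind, with that of Notch1, the called gene, beside them. Each is the 250 bases before the gene's start in RefSeq, build GRCm38.p6, in lower case on the gene's strand, with matches in capitals to the RBPJ site GTGGGAA, its core TGGGAA and the E box CACGTG on either strand. The Nrarp stretch is chr2:25180508-25180757 on the plus strand, the Lfng stretch chr5:140607091-140607340 on the plus strand, and the Notch1 stretch chr2:26503823-26504072 on the minus strand.
Nrarp: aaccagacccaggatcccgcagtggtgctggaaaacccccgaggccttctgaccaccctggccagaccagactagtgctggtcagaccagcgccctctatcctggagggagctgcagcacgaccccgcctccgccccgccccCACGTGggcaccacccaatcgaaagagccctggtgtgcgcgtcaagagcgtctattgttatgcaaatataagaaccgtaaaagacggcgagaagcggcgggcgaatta
Lfng: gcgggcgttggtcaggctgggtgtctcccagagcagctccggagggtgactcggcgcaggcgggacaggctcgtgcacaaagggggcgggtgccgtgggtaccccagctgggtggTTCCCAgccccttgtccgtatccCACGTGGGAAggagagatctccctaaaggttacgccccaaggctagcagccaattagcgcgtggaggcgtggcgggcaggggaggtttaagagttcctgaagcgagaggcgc
Notch1: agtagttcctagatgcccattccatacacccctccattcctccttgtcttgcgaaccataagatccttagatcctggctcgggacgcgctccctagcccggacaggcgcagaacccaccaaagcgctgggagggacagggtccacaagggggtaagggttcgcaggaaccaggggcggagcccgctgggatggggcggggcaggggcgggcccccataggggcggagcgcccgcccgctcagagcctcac

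Promoter windows of 300 bases, which hold a further 50 bases after the start, were matched by symbol for 8 of the 10 Notch genes. Hes1 and Hey1 had no window, so their promoters were not searched. Of the 8 genes searched, Lfng had a match to the RBPJ site, 109 bases before the start. An E box overlaps it and begins 112 bases before the start. Lfng had a further RBPJ core 135 bases before the start on the other strand. Nrarp had an E box 108 bases before the start, and Notch1 had a match to neither. Over all 32851 promoter windows 6.38% held the RBPJ site, 25.6% its core and 7.15% the E box. The N box CACNAG, which Hes factors also bind, was found in 6 of the 9 windows of the 8 Notch genes but also in 42.5% of all windows. These matches are letters in a window and not binding sites shown by these data. The gene with the RBPJ match, Lfng, had a ratio below 0 at low signal, and Nrarp, without one in this window, had both ratios above 0.

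The rest of the pathway was read from a wider list of 76 genes by role, which holds the 10. Of these 71 had a probe set and 63 a ratio, and on the VEGF-labelled array 5 of them were called higher and 3 were called lower. The same shares over all genes are 3.86% and 8.65%. The list median was -0.14, against -0.04 over all genes, with 27 genes above 0 and 36 below. Besides Notch1, the 5 higher genes were the Hes family member Hes6 and 3 keratinocyte genes. Without the keratinocyte genes of the list, 2 of 55 genes were called higher and 3 lower. All 3 lower genes had low signals.

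Hes6, which in mouse is known to oppose Hes1, had a signal of 189 on the VEGF-labelled array and 56.1 on the wild-type array, 3.37-fold higher, by a probe set whose suffix marks possible binding to several transcripts. Its other probe set gave a log2 ratio of 0.67. Hes6 is grouped with the targets in the list, but whether Notch raises it was not tested. Its ratio is therefore not read as that of a Notch target. Of the Hes and Hey genes of this group not yet described, Hes5 (22.2 against 20.4) and Heyl (27.9 against 30.8) had a ratio and were close to background. Hes2, Hes3, Hes7 and Hey2 were at or below background on both arrays.

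Of the 8 receptor-processing genes with a ratio, which cut Notch before and after ligand binding, none reached 2-fold, and their ratios ran from -0.50 to 0.35. Adam10, the protease that makes the ligand-dependent cut, had 1174 on the VEGF-labelled array and 1355 on the wild-type array by its brightest probe set, a log2 ratio of -0.21, while its other probe sets with a ratio gave 0.35 to 0.36. In the transcription complex 0 of 6 genes reached 2-fold, with ratios from -0.41 to 0.26 by the brightest probe set. Rbpj itself had 128 against 153 by its brightest probe set, a log2 ratio of -0.26, and its other probe sets gave -0.77 and -0.27. The coactivator gene Snw1 had 442 against 384. Of 7 corepressor genes 0 reached 2-fold by the brightest probe set, from -0.34 to 0.71, among them Ctbp1 with 1068 against 930. The corepressor gene Tle3 had a log2 ratio of -0.23 by its brightest probe set. Its other probe sets with a ratio gave between -1.20, past 2-fold lower, and 0.11.

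Among the 14 genes of trafficking and turnover, 2 were at least 2-fold lower and 0 higher by the brightest probe set, against 8.65% and 3.86% of all genes. Among the other probe sets of these genes, the lowest log2 ratio was -1.07 for Itch and -1.43 for Neurl1a. Their brightest probe sets gave 0.03 and -0.29, and 10.3% of all probe sets were called lower. Numbl, related to the Notch antagonist Numb, had a signal of 33.2 on the VEGF-labelled array and 69.7 on the wild-type array, 2.10-fold lower. Dtx1, a Deltex ubiquitin ligase that binds Notch, had 25.2 against 51.4, 2.04-fold lower. Nedd4, a ubiquitin ligase with many substrates, had 2209 against 1155 by its brightest probe set, a log2 ratio of 0.94. Its other probe sets gave 0.13 and 0.25. By its brightest probe set Nedd4 was called higher with median-centred ratios (4.61% of all genes) and with the matched offset (2.6%). Dtx4, also of this role, had 51.0 against 29.8, a log2 ratio of 0.77. It was called higher after quantile normalization, 2.07-fold (4.92% of all genes), and lowess normalization, 2.07-fold (5.02%). Of 5 glycosyltransferase genes, Mfng, which encodes Manic fringe, was called lower, with 6.02 on the VEGF-labelled array, below background, and 25.6 on the wild-type array, at least 2.26-fold lower. The Mfng difference was 1.29-fold with a common floor and 1.48-fold with the array median as floor, below the called size, while Dtx1 and Numbl were called there. Numbl, Dtx1 and Mfng had no ratio under the stricter signal filter, so they could not be called there. Poglut1, which adds glucose to Notch, had 204 against 225. The lower calls of Numbl, Dtx1 and Mfng were made at low signal, and none of the 3 was left after quantile or lowess normalization or with either offset. The added offset is large beside these signals and shrinks their ratios, so the loss of the calls there is no check of them. With the unmatched offset Mfng could not have been called lower, however low its signal on the VEGF-labelled array.

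**Figure D4:**
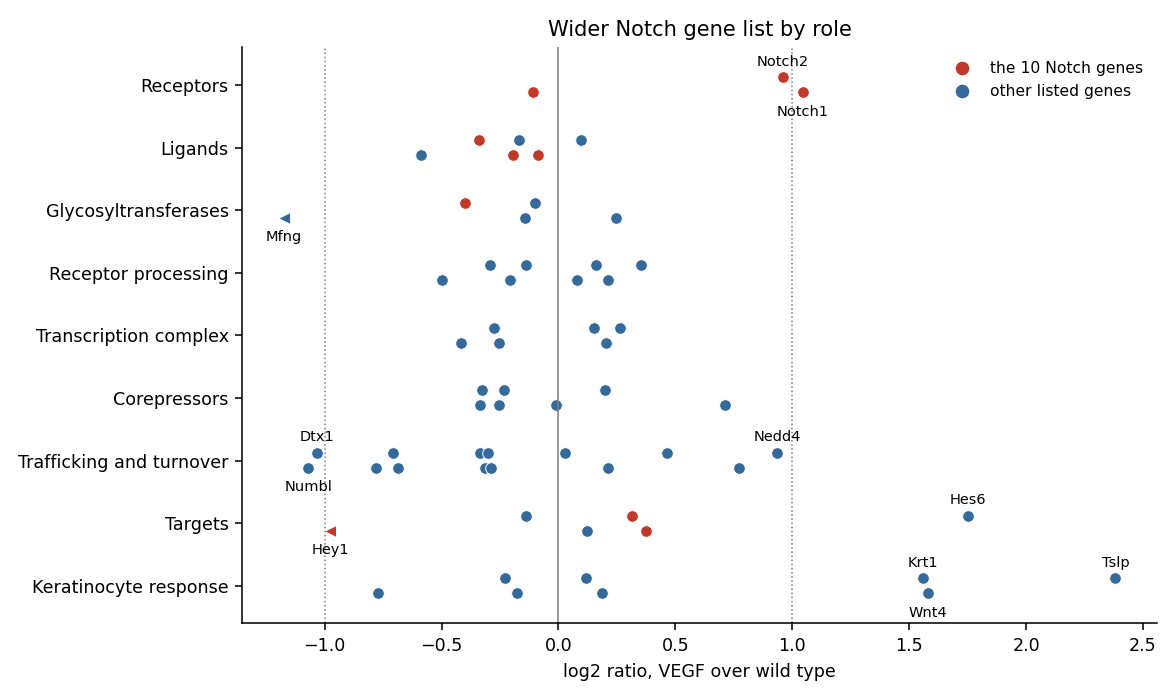
Log2 ratio (x axis, the VEGF-labelled array over the wild-type array) of each of the 63 listed genes with a ratio, by its brightest probe set, in a row for each role. Red marks the 10 Notch genes, blue the other genes, triangles are bounds, and dotted lines mark 2-fold. Tslp, Hes6, Wnt4, Krt1 and Notch1 lie past the right line and Mfng, Numbl and Dtx1 past the left one.

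The keratinocyte genes of the list are known to respond to Notch in mouse or cultured keratinocytes, some up and some down. Of 8 with a ratio, 3 were at least 2-fold higher and 0 lower by the brightest probe set, against 3.86% and 8.65% of all genes. Krt1, a keratin of the spinous layer known to rise with Notch activity, had a signal of 1124 on the VEGF-labelled array and 382 on the wild-type array, 2.94-fold higher. Krt10, its keratin partner, had 2736 against 2525, a log2 ratio of 0.12. Wnt4, known to be repressed downstream of Notch1 in mouse keratinocytes, had 1041 against 348, 2.99-fold higher, and its other probe set gave a log2 ratio of 1.68. Tslp, a cytokine gene that is known to rise in mouse skin without Notch, had 928 against 178, 5.21-fold higher. The genes called higher thus hold both kinds, those known to rise and those known to fall with Notch activity. Cdkn1a, which encodes the cell cycle inhibitor p21, had 1257 against 1106. Ivl had 113 against 127, a log2 ratio of -0.18, and Myc 502 against 588, a log2 ratio of -0.23. Trp63, the basal transcription factor gene that opposes Notch, had 1587 against 2706 by its brightest probe set, a log2 ratio of -0.77, and its other probe sets gave between -2.52 and -0.37.

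**Figure D5:**
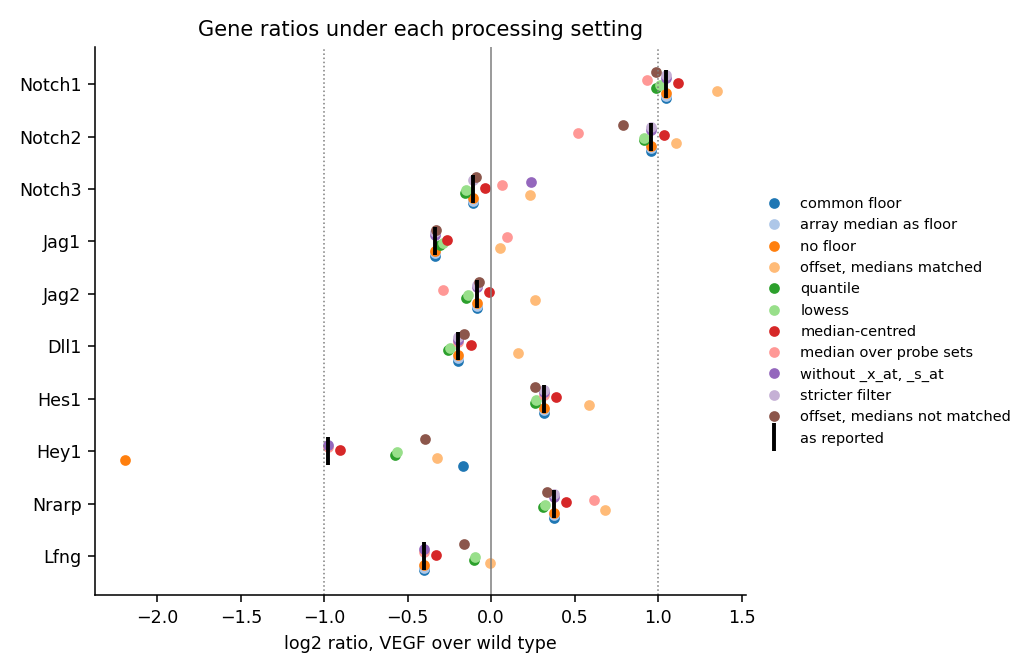
Log2 ratio (x axis, the VEGF-labelled array over the wild-type array) of each of the 10 Notch genes as reported (black bar) and under 11 other processing settings (coloured points); dotted lines mark 2-fold. Points of Notch1, Notch2, Hes1 and Nrarp lie above 0 in every setting, and those of Hey1 run from -2.20 to -0.17.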

How the data were processed

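The authors deposited log2 signals of 2 arrays, and the submitters' processing notes name MAS5, which summarises each probe set on each array separately; its version is not given in the sources used here. As for scale, the mean of anti-logged signals, trimmed by 2%, was 100.04 on each array, a shared global scale, while the median signal was 17.3 on the VEGF-labelled array and 22.6 on the wild-type array. The number of arrays limits the precision.

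Of 45101 probe sets, 64 were controls and were left out, 34945 had exactly 1 gene in the platform annotation, 932 several and 9160 none. All 10 Notch gene IDs had an entry in RefSeq's GRCm38.p6 table. Each gene was represented by its brightest probe set (mean log2 signal). Where only 1 array was above background the fold is a bound against the floor; with both below, or a bound under 1-fold, there is no ratio. The SD between probe sets is the root mean square difference between the 2 brightest probe sets of a gene above background on both arrays, over the square root of 2 (4885 genes). Named genes were the 10, every listed gene at least 2-fold apart and the gene with the highest signal in each role. All other listed genes named, such as Rbpj, Notch4 and Dtx4, were chosen after their values were seen. The members and lists were chosen with earlier results of these data known. Sequences are from RefSeq. Steps were tested on simulated data with Python 3.11.15, pandas 2.3.3, scipy 1.17.1 and statsmodels 0.14.6. The 11 other settings were a common floor, no floor, the array median as floor, an offset of 50 after matching medians or without matching them, quantile and lowess normalization, median-centred ratios, the median over probe sets, leaving out _x_at and _s_at probe sets, and a stricter filter (at least 4 times background on a mean of both arrays). The unmatched offset was chosen after seeing the data.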

Additional observations from a re-analysis of the deposited data

How the results depend on the processing

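The log2 ratios of Notch1, Notch2, Hes1 and Nrarp stayed above 0 under all 11 other settings. Notch1 stayed at least 2-fold higher under 8 of them. With a common floor, the array median as floor, no floor or the stricter filter these values were identical to those reported. So were they without _x_at and _s_at probe sets. These settings cannot move the ratio of a bright probe set without those suffixes, so they are no check of it. Notch1 fell below 2-fold after quantile normalization, with the unmatched offset and as the median over probe sets. Of 107 values of single Notch genes under other settings, 96 moved by less than the probe set SD and 11 by more. The 96 include values that could not move, for the reason just given. They also include genes with 1 ratio under the median over probe sets. Hey1 had no ratio with the array median as floor or under the stricter filter, nor Lfng under the stricter filter. The count of Notch genes at least 2-fold higher was 0 after quantile normalization (4.92% of all genes), 0 with the median over probe sets (3.29%) and 0 with the offset of 50 on unmatched signals (1.01%), and 2 (Notch1 and Notch2) with the offset after matching medians (2.6%) and with median-centred ratios (4.61%). By probe set it was 0 after quantile normalization (5.02% of all probe sets), 0 with the unmatched offset (0.741%), and 2 with the matched offset (1.98%), with median-centred ratios (4.24%) and with no floor (10.4%). With no floor 1 gene (Hey1) and 2 probe sets were at least 2-fold lower, as were 15.3% of all genes and 17.3% of all probe sets. The median over Notch probe sets, 0.10 as reported, was 0.24 with the array median as floor, 0.26 after quantile and 0.27 after lowess normalization, 0.31 under the stricter filter and 0.35 with the matched offset. Listed genes at least 2-fold lower numbered 6 of 71 with no floor (15.3% of all genes) and 1 of 63 with median-centred ratios (7.21%). They numbered 0 after quantile (4.75%) or lowess (4.53%) normalization and 0 with the matched (0.418%) or unmatched (0.973%) offset. Either offset shrinks ratios at low signal, where the lower calls of Numbl, Dtx1 and Mfng were made, so it is no check of those calls. Under the stricter filter 0 of the 46 with a ratio were lower (3.69%), and Numbl, Dtx1 and Mfng had no ratio there. The causes were not tested. No paired analysis was possible because each genotype has 1 array. Low signal limits Hey1, Lfng and the dimmer probe sets of Notch2 and Notch3.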
